A study of Mus musculus with 13 samples.

Results

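The matrix metalloproteinases (Mmp), the Adamts proteases, the Adamts-like proteins and the tissue inhibitors of metalloproteinases (Timp) were followed in 13 mouse tumors. The genes were the protein-coding genes whose GENCODE mouse symbol is Mmp with a number, Timp1 to Timp4, or begins with Adamts. This rule gave 50 genes of the 55332 with values: 22 Mmp, 4 Timp, 19 Adamts and 5 Adamts-like genes. The tumors are mouse NUT carcinomas (mNC), an aggressive squamous cancer. Every group carried the NCT allele (NCT+/-), through which Cre recombinase starts the tumor. The 4 oral WT tumors were labelled KRT14-Cre; NCT+/-, with Cre driven by the promoter of a basal keratin, and the 2 oral KO tumors KRT4Cre; NCT+/-; Sox2fl/fl, where the methods of the study give KRT14-Cre. The 4 pancreatic WT tumors were Pdx1-Cre; NCT+/-, with Cre driven by a promoter of the pancreatic lineage, and the 3 pancreatic KO tumors also carried floxed Sox2 on both alleles. Cre deletes Sox2 only in the cells that express it or descend from them, so stromal cells of a KO tumor keep the gene. The labels name no animals or ages, so p-values measure the spread between these tumors.

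Mmp enzymes are secreted or membrane-bound zinc proteases that cut collagens and other proteins of the extracellular matrix, and most are made as inactive proenzymes. Adamts enzymes are related secreted proteases: some cut aggrecan and versican, others trim procollagens, and the Adamts-like proteins lack the protease domain. Timps bind the active site of Mmps. In carcinomas much of this mRNA is made by stromal cells such as fibroblasts, macrophages, neutrophils and osteoclasts as well as by the tumor cells. In bulk tumor RNA, fewer cells of a type and less RNA per cell cannot be told apart.

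Of the 22 Mmp genes, 9 lie on chromosome 9 within 427.1 kb (GRCm38, chr9:7272514-7699585), in the order Mmp13, Mmp12, Mmp1b, Mmp3, Mmp10, Mmp8, Mmp27, Mmp20 and Mmp7. Mmp1a, a polymorphic pseudogene in GENCODE M21, was not among the genes followed. The AP-1 element TGACTCA, bound by Fos and Jun proteins and long known in Mmp promoters, was searched on both strands in the 250 bases before each RefSeq start. It occurred in 6 of the 35 genes that have such a window (17.1%), against 5.16% of all genes. All 6 are in the chromosome 9 cluster: Mmp13, Mmp12, Mmp1b, Mmp3, Mmp10 and Mmp7. The other 15 genes, Mmp2 and Mmp9 among them, had no window and were not searched. The 4 sequences here are the 100 bases before the start of Mmp13, Mmp7 and Mmp3, which differed between tumor groups in the tests that follow, and of Mmp10, the near relative of Mmp3. They come from RefSeq (GRCm38.p6, plus strand), and capitals mark the element or its reverse complement TGAGTCA.
Mmp13 (chr9:7272414-7272513): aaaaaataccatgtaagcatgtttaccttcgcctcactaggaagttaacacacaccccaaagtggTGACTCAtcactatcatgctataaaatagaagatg
Mmp3 (chr9:7445722-7445821): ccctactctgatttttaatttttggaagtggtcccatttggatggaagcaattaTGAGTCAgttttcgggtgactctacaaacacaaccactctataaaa
Mmp10 (chr9:7502242-7502341): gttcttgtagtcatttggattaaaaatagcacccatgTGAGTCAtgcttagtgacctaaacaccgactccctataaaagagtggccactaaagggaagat
Mmp7 (chr9:7691990-7692089): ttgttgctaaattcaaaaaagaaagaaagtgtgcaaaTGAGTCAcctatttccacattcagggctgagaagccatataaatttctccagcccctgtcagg
The element began 35 bases before the start of Mmp13, 46 before that of Mmp3 and 63 before those of Mmp10 and Mmp7. Such a match describes the letters of the window and not whether a factor bound there in these tumors.

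The depth of the libraries, as total estimated counts, ran from 29393925 to 40419965 for oral WT and from 40964171 to 46134532 for pancreatic WT tumors. For oral KO it was 11735031 and 20431977, and for pancreatic KO it ran from 89562488 to 120482588. Oral KO tumor 1, the shallowest, had 59.5% of its counts in protein-coding genes, against 84.5% to 91.7% in the other 12 tumors. Sox2 ran from 9.04 to 34.1 CPM (counts scaled to a common library size) in the WT tumors and was at most 0.0390 CPM in the KO tumors. The summed level of 8 keratinocyte markers was 6290 to 12421 CPM in the oral and 15236 to 27041 CPM in the pancreatic tumors, so all 13 carried the squamous markers that NUT carcinoma is known for. Pancreatic acinar markers summed to 3.97 to 16.0 CPM in 6 of the 7 pancreatic tumors and to 284 CPM in pancreatic KO tumor 3. Skeletal muscle markers summed to 5558 and 3031 CPM in oral KO tumors 1 and 2, to 543 CPM in oral WT tumor 4 and to at most 8.29 CPM in the other 10.

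A few genes carried most of the matrix protease mRNA. Levels between genes are given as CPM per kilobase of exon. On this scale the 50 genes summed to 531 in oral WT, 329 in oral KO, 246 in pancreatic WT and 315 in pancreatic KO tumors, as sums of the group means. The 5 highest genes held 62.3% to 76.3% of each sum. In oral WT tumors Mmp13, the main interstitial collagenase of the mouse, was highest at 138 ± 68.8 CPM per kilobase (SD, n = 4). It was followed by Mmp14, the membrane-anchored activator of pro-Mmp2, at 75.0 ± 21.3 (SD, n = 4), Mmp2 at 73.7 ± 17.3 and Mmp9 at 65.5 ± 54.8, which did not differ beyond their spread. In pancreatic WT tumors Adamts1, a proteoglycan-cleaving protease, led at 41.6 ± 26.5 CPM per kilobase (SD, n = 4), before Mmp14 at 34.0 ± 6.25 and Timp1 at 28.9 ± 7.23, again within their spread.

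The pancreatic KO tumors were led by Timp3, the Timp that stays bound to the matrix, at 65.0 ± 56.9 CPM per kilobase (SD, n = 3). That mean rested on pancreatic KO tumor 2, where Timp3 reached 1062 CPM against 219 and 307 CPM in the other KO tumors. In the oral KO tumors Mmp13 stayed the highest gene at 97.6 ± 5.12 CPM per kilobase (SD, n = 2). With the longest transcript as length in place of all exons, Mmp14 came before Mmp13 in the oral WT tumors, at 138.1 against 137.7 CPM per kilobase, and before Adamts1 in the pancreatic WT tumors, at 62.6 against 45.2 CPM per kilobase. At the other end, Mmp1b and Mmp21 never exceeded 6 counts in any tumor and Mmp24 never exceeded 11, so these 3 genes entered no test between tissues.

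**Figure D1:**
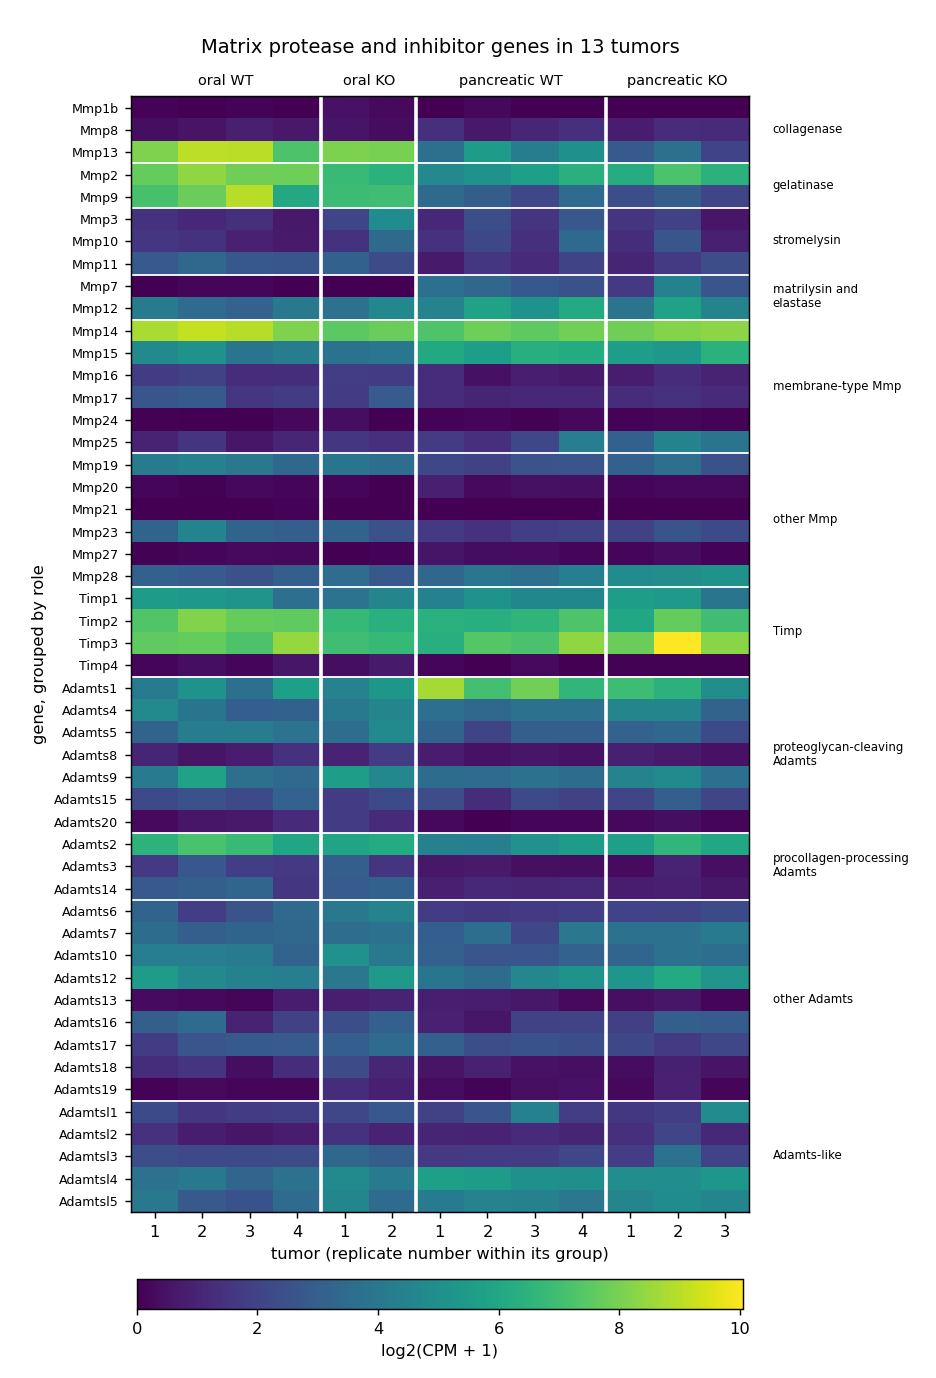
Heat map of the 50 genes (rows, grouped by role) in the 13 tumors (columns, by group and replicate number), coloured by log2(CPM + 1). Mmp9 and Mmp13 are brighter in the 6 oral tumors and Mmp2 in the 4 oral WT tumors, while Mmp7 is dark in all 6 oral tumors.

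The comparison of the oral with the pancreatic WT tumors asks how tissue of origin is reflected in these genes with Sox2 intact. The gelatinases, Mmp13 and the procollagen-processing Adamts genes were higher in the oral tumors, and Mmp7, Mmp12 and Adamts1 were higher in the pancreatic tumors. A gene was called at an adjusted p under 0.05 and a log2 fold change beyond 1 in edgeR's quasi-likelihood test over all genes. Of 47 genes tested, 16 (34.0%) were called higher in oral tumors, against 9.3% of all genes tested, and 7 (14.9%) were called lower, against 7.24%. The values of the groups did not overlap for 15 genes higher in oral tumors and 7 lower, against 14.2% and 13.8% of all genes tested. The median log2 fold change of the 47 was 0.57, beside 0.00 for all genes.

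Both gelatinases, which cut denatured collagen and basement membrane collagen, were called higher in the oral tumors. Mmp9 (chr2:164940780-164955850) was at 137, 216, 508 and 66.3 CPM in the oral WT tumors and at 10.1, 6.73, 3.53 and 10.497 CPM in the pancreatic WT tumors. The lowest oral tumor was thus well above the highest pancreatic tumor, with a log2 fold change of 4.91 ± 0.69 (SE, edgeR adjusted p = 0.00223). Osteoclasts, which resorb bone, are a known rich source of Mmp9, and the order of the 4 oral WT tumors by Mmp9 was also their order by the 8 summed osteoclast markers, which were at 236, 488, 769 and 168 CPM. This order did not hold in the other groups: among the pancreatic WT tumors, tumor 3 had the highest sum, 116 CPM, and the lowest Mmp9. Of the osteoclast markers 5 of 8 were called higher in oral tumors. The pancreatic WT tumors summed to 85.5 to 116 CPM, with Calcr at no more than 3 counts in each and Acp5 alone at 60.0 to 96.0 CPM. The part of osteoclasts in the Mmp9 level was not tested. Mmp2 (chr8:92827291-92853420), typically a fibroblast product, was at 202, 334, 231 and 227 CPM in oral and 25.7, 34.5, 50.2 and 81.5 CPM in pancreatic WT tumors. These groups did not overlap either, and Mmp2 was higher in oral tumors by 2.37 ± 0.36 on the log2 scale (edgeR adjusted p = 0.00276).

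Among the collagenases, which open the triple helix of fibrillar collagen, Mmp13 (chr9:7272514-7283331) was at 278, 530, 512 and 153 CPM in oral and 11.9, 45.5, 18.2 and 32.4 CPM in pancreatic WT tumors. Every oral tumor exceeded every pancreatic tumor, with a log2 fold change of 3.77 ± 0.54 (edgeR adjusted p = 0.00247). Mmp8, the neutrophil collagenase, stayed at or below 1.65 CPM in all 13 tumors and was not called. Osteoblasts and hypertrophic chondrocytes are known for Mmp13. The summed osteoblast markers were at 151 to 490 CPM in oral WT tumors and 10.2 to 12.6 CPM in pancreatic WT tumors, 7 of 8 being called higher in oral tumors and Sp7 at no more than 3 counts in each pancreatic WT tumor. The chondrocyte markers overlapped, at 12.2 to 59.2 and 10.99 to 86.3 CPM. Whether bone cells supplied the Mmp13 mRNA was not tested.

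All 3 procollagen-processing Adamts genes, whose enzymes remove the N-terminal propeptide of fibrillar procollagens, were called higher in oral tumors. Adamts2 was at 88.7, 142, 111 and 59.8 CPM in oral and 20.4, 18.7, 33.2 and 45.3 CPM in pancreatic WT tumors (log2 fold change 1.77 ± 0.35, edgeR adjusted p = 0.00822). Adamts3 and Adamts14 differed more, by 2.78 ± 0.45 and 2.44 ± 0.43, at lower levels of 1.97 to 8.77 CPM in oral and 0.296 to 1.24 CPM in pancreatic WT tumors. Genes of their substrates were called in the same direction: Col1a1 was higher in oral tumors by 2.72 ± 0.35 and Col3a1 by 2.55 ± 0.37 on the log2 scale. Summed over 8 fibroblast markers the oral WT tumors were at 8724 to 19141 CPM and the pancreatic WT tumors at 1138 to 2230 CPM, and 8 of 8 were called higher in oral tumors. How much of the protease difference went with fibroblast content was not tested.

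The membrane-type Mmps split by tissue. Mmp14 (chr14:54431612-54445364) was at 441, 571, 502 and 275 CPM in oral and 156, 227, 190 and 238 CPM in pancreatic WT tumors, a log2 fold change of 1.14 ± 0.23 (edgeR adjusted p = 0.00868). Mmp15, a related epithelial enzyme, went the other way, from 14.03 to 35.3 CPM in oral and from 48.1 to 80.2 CPM in pancreatic WT tumors (log2 fold change -1.51 ± 0.29, edgeR adjusted p = 0.00737). Mmp17, a lipid-anchored member, was higher in oral tumors by 1.72 ± 0.40. Neither Mmp16 nor Mmp25 was called (edgeR adjusted p = 0.061 and 0.0532). Mmp25 was at 1.56 to 3.51 CPM in 3 of the pancreatic WT tumors and at 18.6 CPM in the fourth.

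Mmp7 (chr9:7692090-7699585), or matrilysin, a small protease made by epithelial cells, marked the pancreatic tumors. It was at 11.7, 8.998, 5.88 and 4.58 CPM in the pancreatic WT tumors and at 2.18, 20.4 and 5.20 CPM in the pancreatic KO tumors. In the oral WT tumors it had 7 counts in all, and in the oral KO tumors 0. The level in pancreatic WT was 167-fold that in oral WT tumors (95% interval 80.9 to 417, counting error only), and the edgeR log2 fold change was -7.26 ± 0.71 (adjusted p = 0.000658). In the oral KO tumors the count of 0 allows up to 0.298 and 0.117 CPM, the level of 3 counts. The tumor with the most Mmp7, pancreatic KO tumor 2, had acinar markers at 3.97 CPM, the lowest of the pancreatic tumors, while KO tumor 3, at 284 CPM, had 5.20 CPM of Mmp7. The part of acinar cells in the Mmp7 level was not tested.

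Mmp12, the macrophage elastase, was at 7.92 to 16.1 CPM in oral and 21.6 to 69.3 CPM in pancreatic WT tumors, lower in oral tumors by a log2 fold change of -1.84 ± 0.38 (edgeR adjusted p = 0.0103). The 8 macrophage markers overlapped between these groups, at 310 to 569 and 344 to 414 CPM, and 0 of 8 were called. Of the stromelysins, which cut proteoglycans and activate other Mmps, Mmp3 and Mmp10 were not called (edgeR adjusted p = 0.0963 and 0.0986). Mmp11, known from stromal fibroblasts, was called higher in oral tumors, at 5.40 to 9.23 against 0.656 to 3.18 CPM (log2 fold change 1.89 ± 0.46, edgeR adjusted p = 0.0174).

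Adamts1 (chr16:85793827-85803113) was at 410, 132, 243 and 97.7 CPM in pancreatic and 16.2, 34.0, 12.1 and 50.4 CPM in oral WT tumors. All pancreatic tumors lay above all oral tumors, and the log2 fold change was -2.97 ± 0.60 (edgeR adjusted p = 0.00893). Its neighbour Adamts5 (chr16:85856173-85901828), the main aggrecanase of mouse cartilage, went the other way, at 8.14 to 18.1 CPM in oral and 3.23 to 8.45 CPM in pancreatic WT tumors. The groups overlapped, and the call at 1.13 ± 0.35 (edgeR adjusted p = 0.0437) held in 1 of the 8 fits that each left out a tumor, that without oral WT tumor 1. Adamts4, another aggrecanase, did not separate the tissues, at 7.06 to 26.5 and 9.14 to 12.7 CPM. Adamts20, the last called gene of this role, was higher in oral tumors by 2.88 ± 0.78 at levels of at most 1.33 CPM.

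Of the 4 Timps only Timp2, which also takes part in the activation of pro-Mmp2 by Mmp14, was called. It was at 157, 281, 206 and 195 CPM in oral and 85.0, 79.3, 94.8 and 157 CPM in pancreatic WT tumors. The lowest oral and the highest pancreatic value nearly met, and the log2 fold change was 1.01 ± 0.25 (edgeR adjusted p = 0.0202), and not called without oral WT tumor 2 or pancreatic WT tumor 1, 2 or 3 (0.84 to 0.97). Timp1, an inducible inhibitor, overlapped at 11.7 to 45.1 and 20.4 to 35.0 CPM, and so did Timp3 at 150 to 350 and 77.4 to 332 CPM. Timp4 stayed at or below 0.663 CPM in all 13 tumors.

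The remaining called genes were Mmp19, Mmp23, Adamts6 and Adamts10, higher in oral tumors by 1.89, 2.27, 1.43 and 1.27 on the log2 scale, and Mmp20, Mmp28 and Adamtsl4, lower with log2 fold changes of -2.04, -1.09 and -1.66. Mmp28, or epilysin, is an epithelial Mmp, and Mmp20 is the enamel protease of ameloblasts. Mmp20 was at no more than 33 counts in any tumor, and its call held in 1 of the 8 fits that each left out a tumor, that without pancreatic WT tumor 2. The 7 ameloblast and odontoblast markers summed to at most 0.665 CPM in pancreatic WT tumors, with 5 of 7 at no more than 3 counts in each, and to 14.4 to 81.8 CPM in oral WT tumors. Most of the oral WT sums was Odam alone, at 11.7 to 74.9 CPM, while Amelx and Enam had no more than 3 counts in each. The part of ameloblasts and odontoblasts in the Mmp20 level was not tested. Adamts6 was called in 2 of the 8 such fits, those without oral WT tumor 2 or 3. Adamts20 was not called without oral WT tumor 4 or without pancreatic WT tumor 3 or 4 (2.27 to 2.96 on the log2 scale), Mmp28 not without oral WT tumor 3 or pancreatic WT tumor 4 (-0.96 and -0.87), and Mmp11 not without pancreatic WT tumor 3 (1.76). The other 16 called genes, leaving aside Adamts5, Timp2 and Mmp20, were called in 8 of 8.

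**Figure D2:**
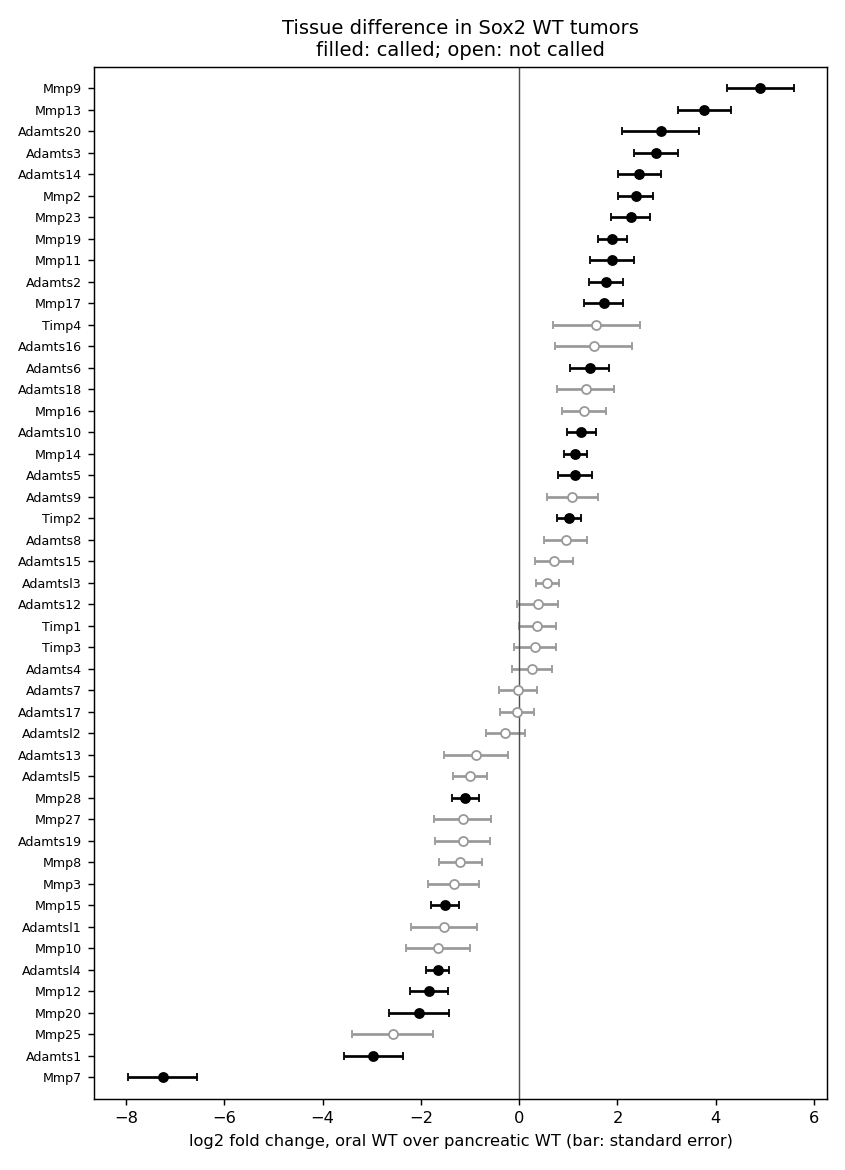
Log2 fold change of oral over pancreatic WT tumors for the 47 genes tested (x axis), with its standard error as a bar, and the genes ordered by value (y axis). Filled points are the 23 called genes, from Mmp9 at 4.91 to Mmp7 at -7.26, and open points were not called.

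Within the chromosome 9 cluster the genes differed in direction. From its first gene, Mmp13, to its last, Mmp7, the log2 difference between the tissues went from 3.77 to -7.26. Mmp13, at the one end, was higher in oral tumors, while Mmp12, Mmp20 and Mmp7 were higher in pancreatic tumors. Mmp3, Mmp8, Mmp10 and Mmp27 were not called, and Mmp1b was not tested. Mmp13 and Mmp7, which carry the AP-1 element in the sequences printed, differed between the tissues in opposite directions. Of the 31-base sequences of Mmp3 14.6%, and of those of Mmp10 11.9%, also occur in other genes, most often in each other, so their counts are less certain.

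**Figure D3:**
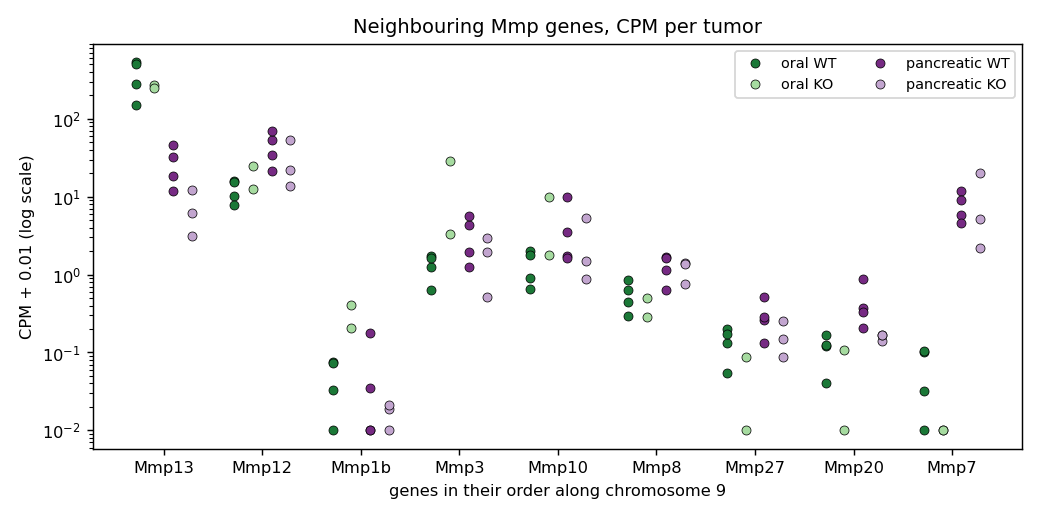
CPM + 0.01 on a log axis for the 9 Mmp genes of chromosome 9 in their genomic order, a point per tumor and a colour per group. Oral points lie above pancreatic points for Mmp13, and for Mmp7 all 7 pancreatic points lie above all 6 oral points.

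The comparison of oral KO with oral WT tumors asks what differed with Sox2 deleted in the oral epithelium. Mmp3, Adamts19 and Adamtsl3 were called higher and Mmp2 and Timp2 lower in the KO tumors. Of 44 genes tested, 3 (6.82%) were called higher against 8.81% of all genes tested, and 2 (4.55%) lower against 2.89%, so neither share was far from that of all genes. The groups did not overlap for 8 genes higher and 4 lower in KO, against 22.4% and 25.5% of all genes. The median log2 fold change was 0.49 over the 44 genes and 0.00 over all genes, and 10 of 44 (22.7%) had an unadjusted p under 0.05 against 35.4%. Macrophage markers summed to 132 and 177 CPM in the KO against 310 to 569 CPM in the WT tumors, with C1qa and C1qb called lower. Fibroblast markers summed to 9443 and 9509 CPM, inside the WT range, with Dcn and Lum called lower. The summed skeletal muscle markers, 5558 and 3031 CPM, were above the highest WT sum of 543 CPM, with Myh4 called higher. Odontoblast and ameloblast markers summed to 132 and 344 CPM against 14.4 to 81.8 CPM in WT tumors, with 0 of 4 tested called. Most of these sums was Odam alone, at 129 and 328 CPM in KO and 11.7 to 74.9 CPM in WT tumors. Dspp was at no more than 3 counts in each KO tumor, and Amelx and Enam in each WT tumor. The part of these cells, and of the low protein-coding share of KO tumor 1, in the differences was not tested.

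Mmp2 reached 108 and 84.4 CPM with Sox2 deleted against 202 to 334 CPM in oral WT tumors. Both KO values lay below all 4 WT values, and the gene fell by 1.28 ± 0.27 on the log2 scale (edgeR adjusted p = 0.029). Timp2 was at 106 and 81.5 CPM against 157 to 281 CPM, also without overlap, and fell by 1.08 ± 0.28 (edgeR adjusted p = 0.0441). Their partner Mmp14 was at 184 and 213 CPM against 275 to 571 CPM. It too did not overlap, but with a log2 fold change of -1.10 ± 0.31 it missed the threshold (edgeR adjusted p = 0.0575). Timp3 was at 123 and 106 CPM against 150 to 350 CPM and was not called either (log2 fold change -0.89 ± 0.34, edgeR adjusted p = 0.116). These are the 4 genes that did not overlap and were lower in KO tumors.

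Mmp3 (chr9:7445822-7455975), stromelysin-1, had 3.27 and 28.5 CPM in oral tumors lacking Sox2 and at 1.74, 1.23, 1.61 and 0.620 CPM in oral WT tumors. Both KO values were above all WT values but lay far apart, and the log2 fold change was 3.67 ± 0.77 (edgeR adjusted p = 0.0314). Without oral KO tumor 2 it was 1.44 and not called, in a fit where the WT tumors alone give the spread. Its near relative Mmp10, stromelysin-2, the next of the genes followed on chromosome 9, was likewise high in that tumor alone, at 10.02 CPM. It had 1.79 CPM in KO tumor 1 and 0.643 to 2.01 CPM in WT tumors (log2 fold change 2.23 ± 0.70, edgeR adjusted p = 0.0706). Adamts19, an orphan member of its family, had 15 and 22 counts in the KO and 3 to 6 counts in the WT tumors, or 1.49 and 0.858 CPM against at most 0.185 CPM (log2 fold change 3.29 ± 0.58, edgeR adjusted p = 0.023). Only the KO tumors reached the 10 counts of the filter, so Adamts19 entered the test only because it was high there. Adamtsl3, a secreted glycoprotein without protease activity, was at 9.13 and 6.90 CPM against 3.60 to 4.28 CPM (log2 fold change 1.11 ± 0.30, edgeR adjusted p = 0.0478).

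The genes that led in oral WT tumors otherwise overlapped between genotypes. Mmp9 was at 118 and 126 CPM in KO tumors, inside the WT range of 66.3 to 508 CPM (edgeR adjusted p = 0.452), beside osteoclast markers of 219 and 196 CPM. Mmp13 was at 270 and 251 CPM, inside its WT range of 153 to 530 CPM (edgeR adjusted p = 0.578). Adamts6 was at 15.1 and 21.7 CPM, above its WT range of 2.52 to 9.69 CPM, but was not called (log2 fold change 1.60 ± 0.50, edgeR adjusted p = 0.0705). With only 2 KO tumors, the 5 calls were fragile. With protein-coding genes alone 0 were called, and leaving out a tumor left 0 calls without WT tumor 1, WT tumor 2 or KO tumor 2, 1 call without WT tumor 3 or KO tumor 1, and 6 without WT tumor 4. The calls over all genes fell as well, from 1968 higher and 646 lower to 19 and 8 with protein-coding genes alone, 43 and 27 without WT tumor 1, 19 and 17 without WT tumor 2, 25 and 23 without KO tumor 1 and 97 and 31 without KO tumor 2. A fit without a KO tumor has a single KO tumor, which is assumed to vary as the WT tumors do.

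**Figure D4:**
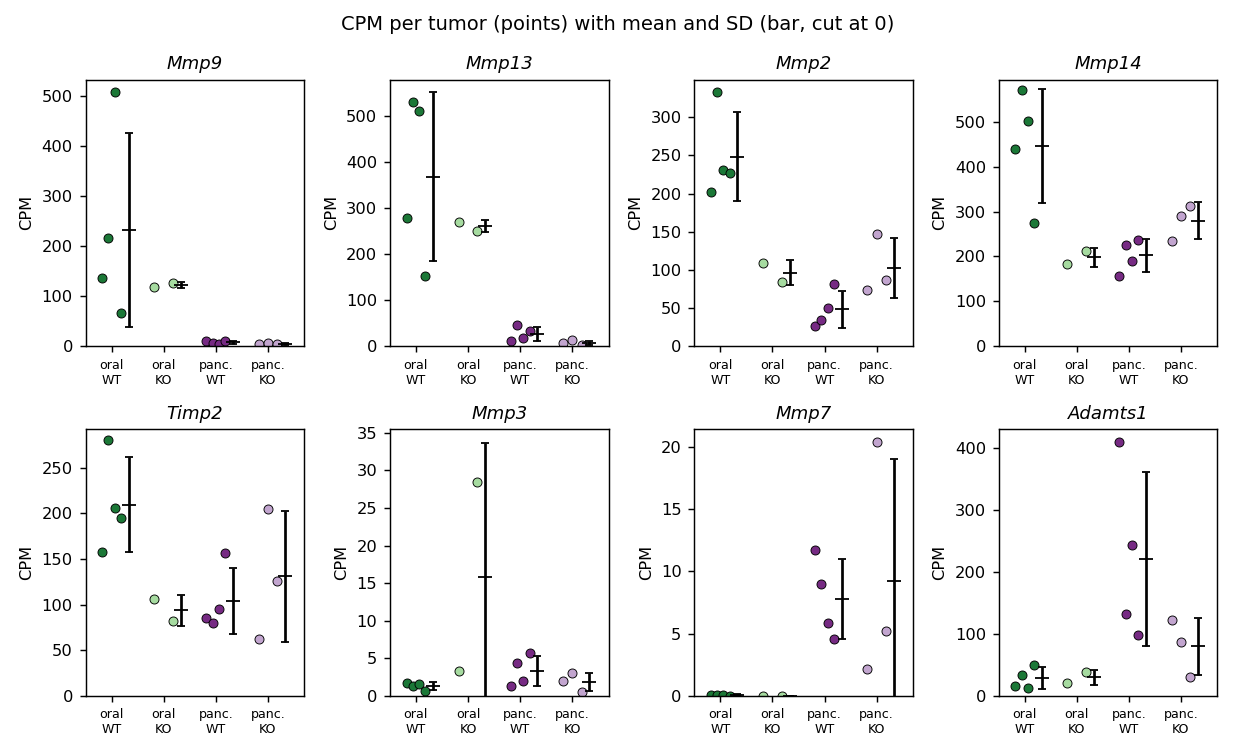
CPM of 8 genes in each tumor (points) by group, with the group mean and SD as a bar beside the points, cut at 0. Mmp9 and Mmp13 are highest in oral tumors and Mmp2 in oral WT tumors, Mmp7 is highest in pancreatic tumors, Adamts1 is highest in pancreatic WT tumors, and Mmp3 reached 28.5 CPM in a single oral KO tumor.

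The same question in the pancreas, KO against WT, gave 0 called genes of 46 in edgeR. Among all genes tested, 0.337% were called higher and 0.292% lower. At an unadjusted p under 0.05 there were 17 of the 46 (37.0%), against 15.9% of all genes, and DESeq2 called 3, Adamts2 and Mmp28 higher and Mmp13 lower, against 1.58% of all genes called higher and 2.94% lower by that tool. The groups did not overlap for 6 genes higher and 3 lower in KO tumors, against 6.8% and 8.75% of all genes. Of the 46 genes 32 (69.6%) had a log2 fold change above 0, against 52.6% of all genes, and the medians were 0.45 and 0.02.

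Mmp28 came closest to the threshold. It was at 27.5, 30.7 and 33.7 CPM in pancreatic KO and at 8.999, 14.5, 12.2 and 19.2 CPM in pancreatic WT tumors. All KO values were above all WT values, with a log2 fold change of 1.17 ± 0.24 (edgeR adjusted p = 0.0752), and edgeR called the gene when WT tumor 4 was left out. Adamts2 was at 49.8, 97.4 and 62.8 CPM in KO tumors against 18.7 to 45.3 CPM in WT tumors, also without overlap (log2 fold change 1.26 ± 0.36, edgeR adjusted p = 0.151). Adamts9, which cuts versican, and Adamts10, a protein of microfibrils, had log2 fold changes of 0.87 ± 0.25 and 0.75 ± 0.23 (edgeR adjusted p = 0.152 and 0.174).

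Mmp13 was at 6.13, 12.3 and 3.08 CPM in pancreatic KO tumors against 11.9 to 45.5 CPM in WT tumors. KO tumor 2 overlapped the lowest WT tumor, and the log2 fold change was -1.91 ± 0.61 (edgeR adjusted p = 0.191). Mmp2 was at 73.4, 147 and 87.1 CPM against 25.7 to 81.5 CPM, and Mmp14 at 234, 291 and 314 CPM against 156 to 238 CPM, both overlapping (edgeR adjusted p = 0.253 and 0.238). Timp3 at 219, 1062 and 307 CPM against 77.4 to 332 CPM had the log2 fold change 1.57 ± 0.65 (edgeR adjusted p = 0.302), and Adamts1 at 122, 87.1 and 30.7 CPM against 97.7 to 410 CPM had -1.46 ± 0.62 (edgeR adjusted p = 0.313). Fibroblast markers summed to 2135 to 3693 CPM in KO and 1138 to 2230 CPM in WT tumors, overlapping, with 0 of 8 called. Other marker sums did not overlap: chondrocyte markers were at 127 to 736 CPM in KO and 10.99 to 86.3 CPM in WT tumors, neutrophil markers at 181 to 627 against 703 to 1254 CPM, and osteoclast markers at 63.0 to 78.8 against 85.5 to 116 CPM. None of the genes tested of these 3 lists was called by edgeR at an adjusted p under 0.05. Most of the neutrophil sums was Ltf alone, at 118 to 603 CPM in KO and 655 to 1063 CPM in WT tumors. Most of the osteoclast sums was Acp5, at 38.6 to 60.1 and 60.0 to 96.0 CPM. Hapln1 of the chondrocyte list was at 73.2 to 715 against 9.60 to 40.1 CPM. The neutrophil genes S100a8, Csf3r and Cxcr2 overlapped, and the osteoclast genes tested had a median log2 fold change of 0.06. KO tumor 2, with the most Timp3, Mmp2 and Adamts2 of the pancreatic tumors, also had their highest fibroblast, macrophage and endothelial sums. These were 3693, 626 and 201 CPM. The part of any of these cells in the protease values was not tested.

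The interaction of tissue and genotype tests whether the KO difference itself differed between oral and pancreatic tumors, in a fit of all 13. Of 47 genes tested, 1 (2.13%) was called higher, against 7.41% of all genes tested, and 3 (6.38%) lower, against 4.85%. Mmp14 had the interaction -1.64 ± 0.35 on the log2 scale (edgeR adjusted p = 0.015), from -1.10 in oral and 0.48 in pancreatic tumors, neither of which was called alone. Mmp2, whose proenzyme Mmp14 activates, had -2.46 ± 0.57 (edgeR adjusted p = 0.0191), from -1.28 and 1.11. Adamts2 had -1.89 ± 0.55 (edgeR adjusted p = 0.0412), from -0.56 and 1.26. Mmp3 had 4.47 ± 1.15 (edgeR adjusted p = 0.0274), from 3.67 and -0.85.

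Mmp14 was called in all 13 fits that each left out a tumor, and Mmp2 in 12 of 13, the exception being the fit without oral KO tumor 2. Mmp3 was called in 10 of the 13, with 2.19 on the log2 scale and no call without oral KO tumor 2, and no call without pancreatic KO tumor 1 or 3. The Adamts2 call held in 3 of the 13, those without oral WT tumor 4, pancreatic WT tumor 4 or pancreatic KO tumor 1. Timp2 and Timp3 had interactions of -1.498 ± 0.554 and -2.52 ± 0.88 and were not called (edgeR adjusted p = 0.083 and 0.0713). Of the fibroblast markers Dcn and Lum were also called, at -4.28 ± 0.77 and -3.48 ± 1.06, as were C1qa and C1qb of macrophages at -2.24 ± 0.45 and -2.59 ± 0.51. The interaction was also called for Hapln1 of chondrocytes (-4.78), Krt5 of keratinocytes (-1.33), Ckm of skeletal muscle (4.45), Myh4 of skeletal muscle, which had no more than 3 counts in any pancreatic tumor, and Bglap2 of osteoblasts (5.56). Their part in the protease interactions was not tested.

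**Figure D5:**
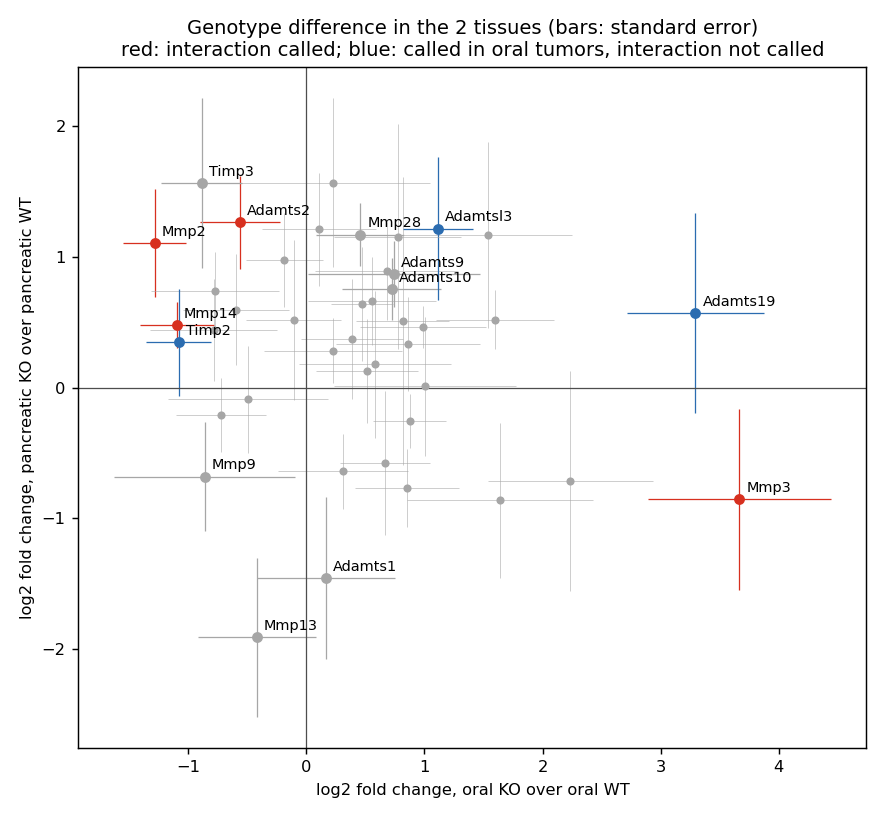
Log2 fold change of KO over WT in oral tumors (x axis) against that in pancreatic tumors (y axis) for the genes tested in both, with standard errors as bars. Mmp14, Mmp2 and Adamts2 (red, interaction called) lie at upper left, and Mmp3 (red) at lower right.

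The levels of 4 proteases were also set against those of their inhibitors, per kilobase. Mmp2 over Timp2 was 1.30 to 1.49 in oral WT and lower, at 1.19 and 1.20, in oral KO tumors, without overlap. In the pancreas the same ratio was 0.349 to 0.611 in WT and higher, at 0.802 to 1.37, in KO tumors, also without overlap. Mmp9 over Timp1 was 0.762 to 3.58 in the oral tumors and 0.0225 to 0.124 in the pancreatic tumors. Mmp13 over Timp1 was 0.194 to 0.457 in pancreatic WT and 0.0423 to 0.0977 in pancreatic KO tumors, without overlap, while oral tumors had 2.04 to 6.71. Mmp14 over Timp2 overlapped between all 4 groups, at 0.922 to 1.83 in oral WT, 1.14 and 1.71 in oral KO, 0.990 to 1.87 in pancreatic WT and 0.928 to 2.47 in pancreatic KO tumors. These mRNA ratios are descriptions and were not tested.

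The activators, other inhibitors, related proteases and matrix substrates were taken as 4 lists. Of 9 activators tested between the WT tissues, Pcsk5, a proprotein convertase, was called higher in oral tumors by 1.23 on the log2 scale, and Plat and Tmprss2 were lower with log2 fold changes of -1.43 and -4.66. Of 12 other inhibitors, Reck, a membrane inhibitor of Mmps, Serpine2 and Spock1 were higher in oral tumors by 2.21, 2.81 and 4.27, and Serpinb5 and Pzp were lower (log2 fold changes -1.48 and -9.16). Of 12 other metalloproteases, Bmp1, which removes the C-terminal propeptide of procollagens, was higher by 1.46, and Adam8, Adam10 and Adam28 were lower. Among 16 substrates 7 were higher and 0 lower in oral tumors, Dcn at 4.47, Eln at 2.904 and Col1a1 at 2.72 among them. Of all genes tested between the WT tissues, 9.3% were called higher and 7.24% lower.

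By genotype, 1 of 11 inhibitors was called in oral tumors, Spock2, with a log2 fold change of -2.57 ± 0.57 (edgeR adjusted p = 0.0344). Of 16 substrates, Ncan was called higher at 1.92 ± 0.43 and Dcn lower at -3.40 ± 0.53, and 0 of 9 activators and 0 of 12 other metalloproteases were called. Of all genes tested in the oral KO comparison, 8.81% were called higher and 2.89% lower. In the pancreatic tumors 0 genes of the 4 lists were called in edgeR, where 0.337% of all genes were called higher and 0.292% lower. The interaction was called for Furin (-1.01), A2m (-4.29), Adam28 (2.67), Eln (-3.41) and Dcn (-4.28), all on the log2 scale. For it 9 activators, 12 other inhibitors, 12 other metalloproteases and 16 substrates were tested. Of all genes tested, the interaction was called higher for 7.41% and lower for 4.85%.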

How the data were processed

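RNA of 13 tumors was depleted of ribosomal RNA and made into stranded total RNA libraries. Reads were trimmed with Trim Galore 0.6.10, checked with FastQC 0.12.1, quantified with kallisto 0.50.0 on GENCODE M23 transcripts and summed per gene, and the authors deposited the resulting estimated counts without scaling. Of the values, 27.3% were not whole, and they were rounded here. Symbols, lengths and positions came from GENCODE M21 (GRCm38), with 50 of 50 members matched by Ensembl identifier. Groups came from the sample titles. Each comparison was fitted in edgeR 4.0.16 (R 4.3.3, robust quasi-likelihood, TMM) on genes that reached 10 counts in 2 or more of its tumors, with Benjamini-Hochberg adjustment over all genes tested. The steps were tested on simulated data. Intervals cover counting error only. DESeq2 1.42.0, apeglm 1.24.0, other filters and scalings and leaving out each tumor were alternatives. The members and lists were chosen with earlier results of these data known. Genes named were those called anywhere, the 5 smallest p-values of each comparison, the 10 highest levels, the Timps and 10 listed members, and a few others were named after their values were seen. No protein sequences were used here.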

Additional observations from a re-analysis of the deposited data

Results flagged for a closer look

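In oral WT tumor 2 the level of 4 genes lay far from that of the other oral WT tumors: Adamts3 at 5.66 CPM, Adamts9 at 54.96 CPM, Mmp11 at 9.23 CPM and Mmp23 at 22.0 CPM, each by Dixon's test within the 4 tumors. Chance alone gives such a result in about 1 of 20 groups, and 61 groups of 4 were checked. That tumor also had the highest summed fibroblast, osteoblast and neutrophil markers of the 13, at 19141, 490 and 1322 CPM. Of the neutrophil sum 1264 CPM was Ltf alone. S100a8 was at 22.6 CPM there against 192 CPM in oral WT tumor 4. Csf3r and Cxcr2 were at 6.06 and 3.11 CPM against 27.9 and 25.8 CPM in pancreatic WT tumor 1. The part of fibroblasts, osteoblasts and neutrophils in the 4 levels was not tested. Adamts3, Mmp11 and Mmp23 stayed higher in oral than in pancreatic tumors without it.

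The KO difference was called as unlike between the tissues for 4 genes, with interactions of -1.64 for Mmp14, -2.46 for Mmp2, -1.89 for Adamts2 and 4.47 for Mmp3 on the log2 scale in edgeR.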

How the results depend on the processing

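The 23 calls between the WT tissues ranged from 17 to 30 over the alternatives and from 17 to 22 with each tumor left out. In the oral KO comparison the 5 calls became 3 with at least 10 counts required in every tumor, 3 with counts thinned to the smallest library, 0 with protein-coding genes alone and 8 in DESeq2, and leaving out each tumor gave 0 to 6. In the pancreatic KO comparison the 0 calls became 1 without a count filter and 3 in DESeq2, with or without apeglm, and leaving out each tumor gave 0 to 1. The 4 interactions became 8 in DESeq2, with or without apeglm, and 1 to 6 with each tumor left out, with 1 without oral KO tumor 2 and 2 without pancreatic KO tumor 3. DESeq2 also called more of all genes: 2606 higher and 1399 lower of 22342 in the oral KO comparison, against 1968 and 646 in edgeR. In the interaction it called 2742 higher and 2007 lower of 25836, against 1914 and 1254. Between the WT tissues it called 2481 higher and 2006 lower of 23164, against 2155 and 1677. No direction of a called gene changed. The cause of these shifts was not tested. Tumor numbers did not pair the samples: deviations of same-numbered tumors correlated at -0.152 to 0.419, and over 0.1 only for pair 1 of the pancreas. As a replicate block they gave 0 oral calls, 1 pancreatic call, 17 calls between tissues and 2 interactions. Over all genes this block gave 43 higher and 22 lower oral calls, and 189 and 401 pancreatic calls. Between tissues it gave 1629 and 1360, and for the interaction 824 and 636. With the longest transcript as length the mean level over the 4 groups moved from 47.3 to 87.1 CPM per kilobase for Mmp14 and from 32.2 to 55.5 for Timp3. The oral KO comparison rests on 2 tumors of the lowest depth, where 3 counts amount to 0.298 and 0.117 CPM, so genes below those levels were not measurable there.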
